A study of Mus musculus with 11 samples.

Results

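Transcripts of 7 macrophage genes were examined in skin of transplanted mice. They were Csf1r, Adgre1, Cd68, Mrc1, Cd163, Marco and Mertk, chosen by name as genes of macrophage identity and uptake, and all 7 were found among the 754 genes of the NanoString Myeloid Innate Immunity panel. Macrophages are phagocytes of blood and embryonic origin that depend on signals through the CSF-1 receptor. In skin they sit mainly in the dermis, clear dead cells and debris, and take part in repair and in the response to injury. Scavenger receptors are surface proteins through which these cells bind and take up modified lipoproteins, haemoglobin complexes, mannose-bearing glycoproteins, bacteria and other particles, while the receptor tyrosine kinase MERTK serves the uptake of apoptotic cells.

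The study asked how the loss of recipient mast cells alters skin in a mouse model of chronic graft-vs.-host disease. The syngeneic group (n = 3) and the allo-WT group (n = 3) had C57BL/6J recipients, and the allo-MCd group (n = 5) had recipients of the strain B6.Cg-KitW-sh/HNihrJaeBsmGlliJ, which carry the W-sh allele of Kit and lack mast cells. All recipients were female, were used at 8 to 10 weeks of age, and received 850 cGy of ionizing radiation followed by intravenous bone marrow cells and splenocytes. By the methods the donors were LP/J mice for both allogeneic groups and C57BL/6J mice for syngeneic transplants, but the labels name LP/J cells for all samples. Group names follow the methods. Skin of the neck was collected after week 7, and 100 ng of total RNA per mouse was loaded. The W-sh recipients carry their Kit allele in every cell that stems from the recipient, and whether a macrophage transcript came from donor or recipient cells was not measured. The samples are whole skin, so that fewer macrophages and less RNA per macrophage cannot be told apart.

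Each value is a normalized count, the number of RNA molecules counted for a gene after the authors' normalization. The whole counts recovered from the values summed to 831632 to 1460260 per mouse, and background, the mean of the negative control probes plus 2 SD, lay between 14.3 and 37.5 normalized counts. One lane stood apart, that of allo-WT mouse 1, with the lowest total and a strongest positive control of 3975 counts. The other allo-WT mice had 17615 and 19850 counts, syngeneic mice 23084 to 27287 and allo-MCd mice 27650 to 33547. The groups thus did not overlap in this control. The factor from whole to normalized counts was 1.1943 to 2.5351 in allo-WT mice and 0.7593 to 1.1511 in allo-MCd mice. In syngeneic mice the factor was 1.0819 to 1.4964, which overlapped both. The part of these lane differences in the values of the 7 genes was not tested. All 7 mast cell marker genes on the panel fell in allo-MCd skin against allo-WT skin (6 under median scaling), where 50.4% of all genes tested were called lower (30.4% under median scaling), and their summed level was 139 to 656 in allo-MCd mice, 2397 to 14802 in allo-WT mice and 3851 to 9348 in syngeneic mice. Kit itself lay between 54.1 and 126 normalized counts in syngeneic mice, between 11.9 and 91.3 in allo-WT mice and between 7.98 and 21.7 in allo-MCd mice, and was not above background in any allo-MCd mouse. The typical gene was also lower in allo-MCd mice, with a median of 241 to 356 normalized counts per mouse against 465 to 555 in allo-WT and 401 to 456 in syngeneic mice.

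Promoter sequence was read from RefSeq (GRCm38.p6) for the 5 of the 7 genes that had an entry, as 300 bases that span the start. The 3 printed here belong to a closely matched pair of genes, Mrc1 and Cd68, and to Mertk, the gene whose groups overlapped in every comparison. Capitals mark the letters GAGGAA on either strand (TTCCTC when read on the opposite strand), the core of sites bound by the myeloid Ets factor PU.1. Mrc1 lies at chr2:14229164-14229463 on the plus strand, Cd68 at chr11:69666121-69666420 on the minus strand and Mertk at chr2:128698665-128698964 on the plus strand.
Mrc1: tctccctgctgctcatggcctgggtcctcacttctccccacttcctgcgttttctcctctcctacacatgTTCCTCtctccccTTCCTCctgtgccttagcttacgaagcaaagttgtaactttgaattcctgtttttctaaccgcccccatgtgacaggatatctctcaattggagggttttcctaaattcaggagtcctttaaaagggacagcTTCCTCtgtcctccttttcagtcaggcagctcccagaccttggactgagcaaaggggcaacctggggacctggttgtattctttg
Cd68: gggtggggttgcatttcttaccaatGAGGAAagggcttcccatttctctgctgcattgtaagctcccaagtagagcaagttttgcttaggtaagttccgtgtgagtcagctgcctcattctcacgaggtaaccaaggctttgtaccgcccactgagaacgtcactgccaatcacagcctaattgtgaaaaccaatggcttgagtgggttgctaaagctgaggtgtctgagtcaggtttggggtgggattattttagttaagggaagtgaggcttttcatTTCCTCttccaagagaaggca
Mertk: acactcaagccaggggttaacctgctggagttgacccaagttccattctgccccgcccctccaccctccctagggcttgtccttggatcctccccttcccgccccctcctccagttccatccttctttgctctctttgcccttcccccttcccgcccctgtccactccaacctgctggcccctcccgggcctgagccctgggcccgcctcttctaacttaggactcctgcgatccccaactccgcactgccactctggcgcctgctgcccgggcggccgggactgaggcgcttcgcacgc
The Mrc1 promoter held 3 matches, the Cd68 promoter 2, the Marco promoter 1, and the Cd163 and Mertk promoters 0. No other motif was searched. The same letters were present in 28.3% of all 32851 promoters of that length and in 37.0% of the 652 promoters of genes tested. A match is only a description of these letters.

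All 7 macrophage genes were lower in allo-MCd skin than in allo-WT skin. The fall ran from 2.40-fold for Mertk to 10.4-fold for Marco, the scavenger receptor of marginal zone and alveolar macrophages, and was 6.93-fold for the mannose receptor Mrc1. All 7 passed the test (limma on log2(normalized count + 1), all 3 groups in one fit, Benjamini-Hochberg adjustment over 697 genes, with calls made up to an adjusted p of 0.05), where 50.4% of all genes tested were called lower. For 6 of the 7 the 5 allo-MCd mice all lay below the 3 allo-WT mice, against 45.9% of all genes tested, and Mertk was the exception. The median log2 difference of the 7 genes was -2.31, against -0.71 over all genes tested. With each mouse scaled to the same median gene, a choice that removes this shift of all genes and turns the split of calls from 50.4% lower and 11.3% higher to 30.4% lower and 35.7% higher, 6 of the 7 were still called lower, and Mertk was not, with a log2 difference of -0.43. The differences of the 6 were then smaller, from -1.04 for Cd163 to -2.55 for Marco on the log2 scale, with -1.26 for Csf1r, -1.47 for Adgre1, -1.71 for Cd68 and -1.96 for Mrc1, and the median of the 7 was -1.47.

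Between allo-WT and syngeneic skin, 4 of the 7 genes rose. They were Mrc1 by 2.62-fold, the lysosomal glycoprotein gene Cd68 by 2.53-fold, the F4/80 antigen gene Adgre1 by 2.05-fold and Marco by 2.75-fold, where 28.1% of all genes tested were called higher. In these same 4 genes the 3 allo-WT mice all lay above the 3 syngeneic mice, against 33.7% of all genes tested. Csf1r, Cd163 and Mertk did not pass the test. The median log2 difference was 1.04, against 0.22 over all genes tested. Under median scaling 24.2% of all genes were called higher and 27.4% lower, where the deposited scale gave 28.1% and 14.9%, and 3 of the 7 stayed higher, without Marco (limma adjusted p = 0.0911). With 3 mice against 3, an exact permutation test of a single gene cannot give a p below 0.1.

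Compared with syngeneic skin, allo-MCd skin was lower in 6 of the 7 genes, from 2.31-fold for Cd68 to 3.77-fold for Marco, where 37.0% of all genes tested were called lower. In these 6 the 5 allo-MCd mice all lay below the 3 syngeneic mice, against 37.3% of all genes tested. The log2 differences of the 6 were -1.57 for Csf1r, -1.27 for Adgre1, -1.21 for Cd68, -1.40 for Mrc1, -1.33 for Cd163 and -1.92 for Marco, with limma adjusted p from 0.00167 to 0.0119. Mertk did not pass the test. The median log2 difference was -1.33, against -0.59 over all genes tested. Under median scaling Csf1r, Cd68 and Mrc1 were still called lower, with log2 differences of -0.99, -0.63 and -0.82. These are 3 of the 7 genes, where that scaling called 13.8% of all genes lower and 13.8% higher, and the deposited scale 37.0% and 4.73%. By the test named in the study's methods (analysis of all groups on the deposited values, then Tukey's comparison), Csf1r alone of the 7 was called lower here, and 0 after Benjamini-Hochberg adjustment. Each of these comparisons shares a group of mice with the others, so their results are not independent.

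**Figure D1:**
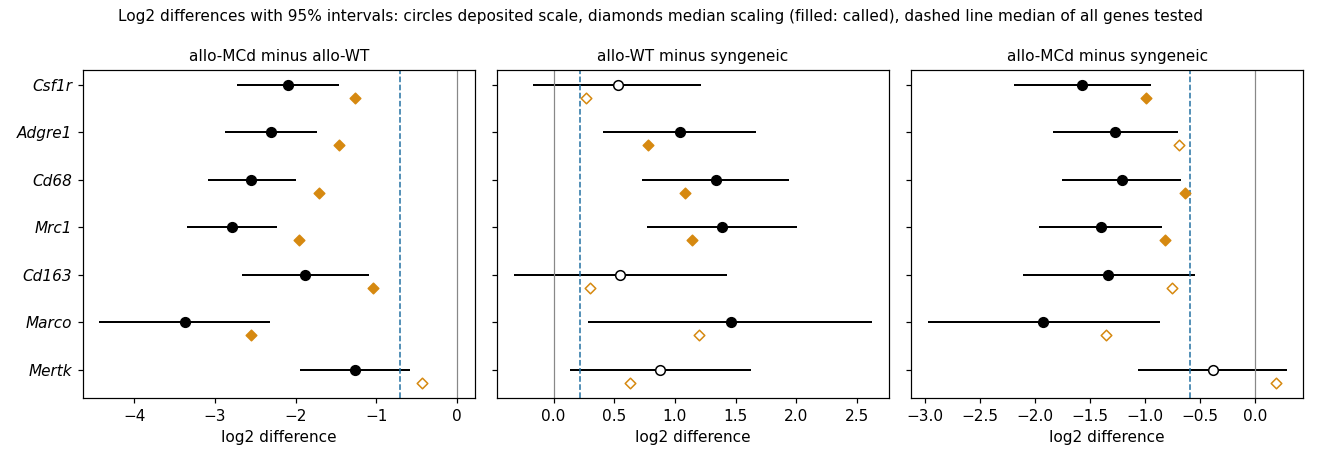
Log2 differences of the 7 genes (rows) in the 3 comparisons (panels), with the 95% interval of the limma fit. Circles stand for the deposited scale and diamonds for median scaling, filled where called, and the dashed line is the median of all genes tested. Circles are filled for 7 genes in the left panel, 4 in the middle panel and 6 in the right panel.

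Csf1r encodes the receptor for CSF-1 and IL-34, on which most macrophages depend for survival. Its normalized counts were 4058, 2350 and 3265 in the syngeneic mice, 5012, 3401 and 5475 in the allo-WT mice, and 752.5, 969, 1273, 873 and 1668 in the allo-MCd mice. Every allo-MCd mouse was below every other mouse, while the syngeneic and allo-WT mice overlapped. Csf1r fell by 2.09 on the log2 scale (SE 0.28, adjusted p = 5.56e-05, limma) from allo-WT to allo-MCd skin, with an exact permutation p of 0.0179, the smallest that 3 mice against 5 can give. The log2 difference between allo-WT and syngeneic skin was 0.53, with a 95% interval from -0.16 to 1.21 (limma adjusted p = 0.181).

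Adgre1 encodes F4/80, the adhesion-class receptor long used to mark mouse macrophages. Its normalized counts were 1881, 3225 and 1966 in syngeneic mice, 4160.1, 3779.8 and 6569 in allo-WT mice, and 701, 1069, 858, 981 and 1213 in allo-MCd mice. The 3 groups did not overlap, with allo-WT highest and allo-MCd lowest. The level rose by 1.04 on the log2 scale from syngeneic to allo-WT skin (SE 0.28, limma adjusted p = 0.0119) and was 4.95-fold lower in allo-MCd mice than in the allo-WT group (adjusted p = 1.33e-05). Without syngeneic mouse 1 the first difference was 0.90, and without syngeneic mouse 3 it was 0.93, and neither was called, nor was the value of 0.74 under quantile normalization.

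Cd68 encodes a heavily glycosylated protein of late endosomes and lysosomes that is also counted among the scavenger receptors. Its normalized counts were 2315, 1786 and 2134 in syngeneic mice, 7126, 3879 and 5151 in allo-WT mice, and 630.25, 1072, 849, 823 and 1204 in allo-MCd mice. Here too the 3 groups did not overlap. Cd68 rose by 1.34 on the log2 scale from syngeneic to allo-WT skin (SE 0.27, limma adjusted p = 0.00256) and was 5.84-fold lower in allo-MCd mice than in the allo-WT group (adjusted p = 4.75e-06). The call in each of these comparisons held when any single mouse was left out.

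Mrc1 encodes CD206, the mannose receptor, an endocytic lectin abundant on dermal macrophages. Its normalized counts were 3947, 3752 and 4642 in syngeneic mice, 13897, 7189 and 12400.3 in allo-WT mice, and 1198, 1754, 1571, 1251 and 2154 in allo-MCd mice. The lowest allo-WT mouse was above the highest syngeneic mouse, and the highest allo-MCd mouse was below the lowest syngeneic mouse. The rise from syngeneic to allo-WT skin was 1.39 on the log2 scale (SE 0.28, limma adjusted p = 0.00249), and the fall from allo-WT to allo-MCd skin was the strongest of the 7 by adjusted p (log2 difference -2.79, SE 0.25, adjusted p = 2.93e-06). Both calls held when any single mouse was left out.

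Cd163 encodes the receptor that takes up haemoglobin bound to haptoglobin. Its normalized counts were 2822, 1306 and 2174 in syngeneic mice, 5141, 1920.4 and 2551 in allo-WT mice, and 592, 859, 914, 578 and 1197 in allo-MCd mice. The highest value was that of allo-WT mouse 1, the mouse with the weakest positive control, and the other allo-WT mice lay within the range of the syngeneic mice. The log2 difference between allo-WT and syngeneic skin was 0.55 (95% interval -0.32 to 1.42, limma adjusted p = 0.266), and 0.15 without that mouse. From allo-WT to allo-MCd skin Cd163 fell by 1.88 on the log2 scale (SE 0.36, limma adjusted p = 0.000706), and it was still called without that mouse, at -1.47. From syngeneic to allo-MCd skin it fell by 1.33 on the log2 scale (limma adjusted p = 0.0119), a call lost without syngeneic mouse 1, where the log2 difference was -1.08.

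Marco encodes a class A scavenger receptor for bacteria and particles. Its normalized counts were 100.3, 212 and 82.7 in syngeneic mice, 264, 662 and 212 in allo-WT mice, and 16.7, 31.5, 39.3, 59.0 and 24.2 in allo-MCd mice. The lowest allo-WT mouse (212.06) was only just above the highest syngeneic mouse (212.04), and the allo-MCd mice lay below both groups. These levels are near the limit of the assay in allo-MCd skin, where 4 of 5 mice were above background and the recovered counts were 22, 34, 38, 74 and 21. For the first of these mice the exact 95% Poisson interval, which covers counting error only, ran from 10.5 to 25.3 normalized counts, around its background of 14.3. Between allo-WT and allo-MCd skin Marco dropped 10.4-fold (log2 difference -3.37, SE 0.48, limma adjusted p = 8.1e-05), and with a pseudocount of 20 the log2 difference was -2.76. Its rise from syngeneic to allo-WT skin, 1.46 on the log2 scale (SE 0.54, limma adjusted p = 0.0444), was not called when mouse 1 or 3 of the syngeneic group, mouse 1 or 2 of the allo-WT group or mouse 2 or 3 of the allo-MCd group was left out, with log2 differences of 1.32, 1.19, 1.63, 0.96, 1.46 and 1.46.

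Mertk encodes a receptor tyrosine kinase that binds apoptotic cells through the bridging proteins GAS6 and protein S. Its normalized counts were 414.5, 314 and 431 in syngeneic mice, 1004, 911 and 383 in allo-WT mice, and 260.45, 259, 293, 269.6 and 405 in allo-MCd mice. Its lowest allo-WT value, that of mouse 3, lay within the range of both other groups, so that no pair of groups was apart. Mertk fell by 1.26 on the log2 scale from allo-WT to allo-MCd skin (SE 0.30, limma adjusted p = 0.00331, exact permutation p = 0.0357), with a log2 difference of -1.70 without allo-WT mouse 3. The log2 difference between allo-WT and syngeneic skin was 0.88 (limma adjusted p = 0.0534), and it was called without allo-WT mouse 3, at 1.32, and without allo-MCd mouse 5, at 0.88. For allo-MCd minus syngeneic skin it was -0.38 (95% interval -1.05 to 0.28, limma adjusted p = 0.311), and 0.19 under median scaling.

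**Figure D2:**
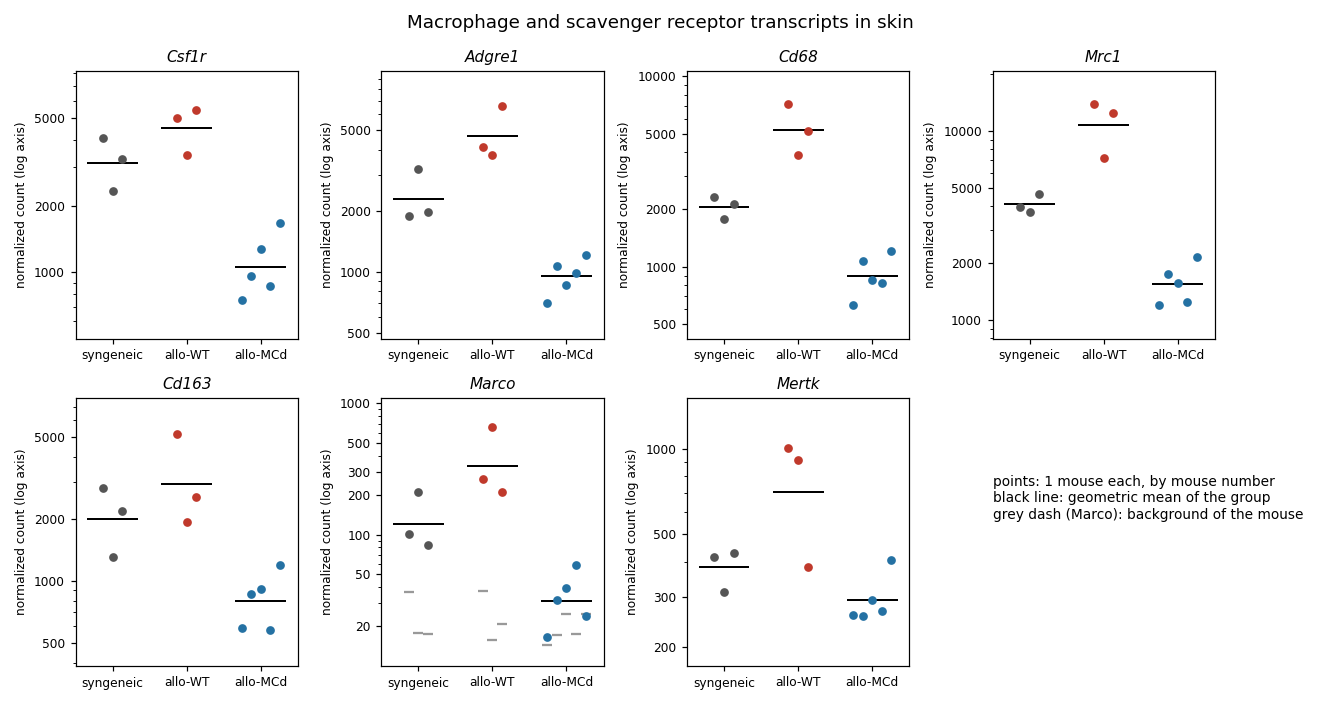
Normalized counts of the 7 genes in each mouse, on a log axis, by group; each point is a mouse and the black line is the geometric mean of the group. The grey dashes in the Marco panel mark the background of each mouse. Adgre1, Cd68 and Mrc1 show 3 groups apart, Marco nearly so, Mertk shows none, and the lowest Marco values of allo-MCd mice (16.7 and 24.2 normalized counts) lie close to background.

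To ask whether the genes moved together, each was also taken relative to Csf1r within the same mouse, a ratio that does not change with the scaling of that mouse. In this ratio the log2 difference of Mrc1 for allo-MCd minus allo-WT skin was -0.70 (limma adjusted p = 0.0195 over 696 genes, exact permutation p = 0.0179). It was the only one of 6 genes called, where 7.76% of all genes tested were called lower and 64.4% higher. The 3 allo-WT mice had log2 ratios of Mrc1 to Csf1r of 1.47, 1.08 and 1.18, and the 5 allo-MCd mice had 0.67, 0.86, 0.30, 0.52 and 0.37, with no overlap between the groups (3.74% of all genes lay apart in that direction). The syngeneic mice had -0.04, 0.67 and 0.51, so that allo-WT skin stood above both other groups. Without allo-WT mouse 1 the difference from allo-MCd skin was -0.59 and was not called (limma adjusted p = 0.0807). With all mice and mouse number added to the fit as a block, the difference was not called either.

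Cd68 and Mrc1 rose relative to Csf1r from syngeneic to allo-WT skin, by 0.81 and 0.86 on the log2 scale (limma adjusted p = 0.0302 and 0.0218), where 12.4% of all genes tested were called higher. The log2 ratios of Cd68 to Csf1r were -0.81, -0.40 and -0.61 in syngeneic mice and 0.51, 0.19 and -0.09 in allo-WT mice, which did not overlap (14.7% of all genes lay apart in that direction). Cd68 was not called without syngeneic mouse 1 (0.71) or 3 (0.81) or without allo-WT mouse 1 (0.66) or 2 (0.82), and Mrc1 was not called without syngeneic mouse 1 (0.65) or allo-WT mouse 1 (0.75). With mouse number added to the fit as a block, neither gene was called. For Cd163 the log2 difference in the ratio was 0.02 (95% interval -0.61 to 0.66), with allo-WT mice at 0.04, -0.82 and -1.10, and it was -0.31 without allo-WT mouse 1. Adgre1 was called without syngeneic mouse 2, at 0.97, and Mertk without allo-WT mouse 3, at 0.93.

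Mertk stood higher relative to Csf1r in allo-MCd than in syngeneic skin, by 1.18 on the log2 scale (limma adjusted p = 0.0145, exact permutation p = 0.0179). Its log2 ratios were -3.29, -2.90 and -2.92 in syngeneic mice and -1.53, -1.90, -2.11, -1.69 and -2.04 in allo-MCd mice, with no overlap. This direction was common on the panel, since 55.9% of all genes tested were called higher relative to Csf1r in this comparison and 56.0% did not overlap. The other 5 genes did not pass the test. Without syngeneic mouse 1 Mertk was not called (1.06), and without syngeneic mouse 2 Adgre1 was called as well (0.76). Against allo-WT skin the Mertk ratio differed by 0.83 (limma adjusted p = 0.0551), and it was called without allo-WT mouse 1 (1.01) or 2 (1.22), while without allo-WT mouse 3 it was 0.25. The ratio of Marco differed by -1.28 (limma adjusted p = 0.0688), was called without syngeneic mouse 2 (-1.28), allo-WT mouse 3 (-1.74) or allo-MCd mouse 4 (-1.57), and was -0.58 without allo-WT mouse 2.

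**Figure D3:**
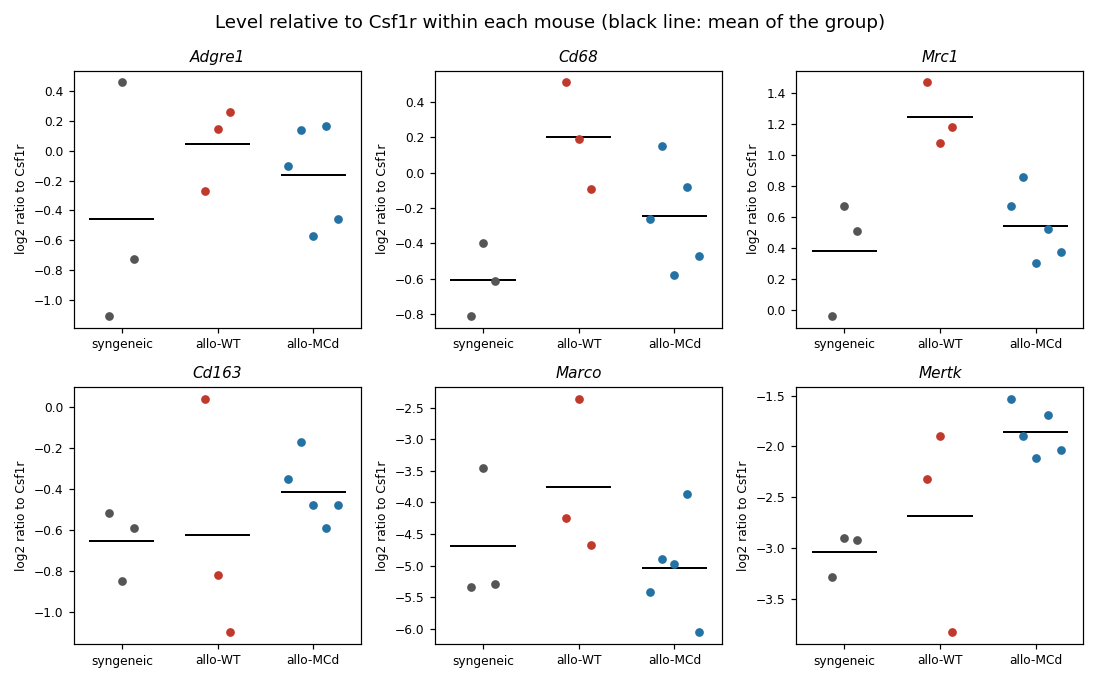
Log2 ratio of 6 genes to Csf1r within each mouse, by group; each point is a mouse and the black line is the mean of the group. The 3 allo-WT mice lie above the other mice for Mrc1 (from 1.08), and the 5 allo-MCd mice lie above the syngeneic mice for Mertk (from -2.11).

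The likeness of 2 genes was measured over the 11 mice as the root-mean-square distance between their log2 levels after the mean of each gene was taken off. Both genes of a pair share the scaling of each mouse, and the distances are given as a description with no test. Among the 21 pairs of the 7 genes, Cd68 and Mrc1 were closest, at 0.18, followed by Csf1r and Cd163 at 0.30, and Marco and Mertk were farthest, at 1.16. Over all 696 other genes tested, those nearest to Cd68 included the complement gene C1qa at 0.17 and Mrc1, against a median distance of 0.97. Nearest to Mrc1 were Cd68, the SLAM family receptor gene Cd84 at 0.18 and the endosomal RNA sensor Tlr8 at 0.19. Nearest to Csf1r were Ptafr, the receptor for platelet-activating factor, at 0.13, the P-selectin ligand gene Selplg at 0.15 and the costimulatory gene Cd86 at 0.19. None of these 3 was called between allo-WT and syngeneic skin, and neither was Csf1r. They were picked for likeness to Csf1r over the same mice, so this is no separate result.

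The genes nearest to Adgre1 included Pdcd1lg2, which encodes PD-L2, at 0.28 and C1qb at 0.31. Cd163 lay nearest to Crip1 at 0.21, and to Adgre5 and the integrin gene Itga5, both at 0.26. The distances were larger for Marco, with the fungal glucan receptor Clec7a at 0.57, the protease gene Ctss at 0.59 and the oxidase subunit Cybb at 0.63, against a median of 1.43. Mertk lay nearest to the lysosomal protease gene Ctsl at 0.25, Rapgef4 at 0.28 and the adaptor gene Myd88 at 0.30. Ctsl and Rapgef4 fell from allo-WT to allo-MCd skin, with log2 differences of -1.52 and -1.01. Like Mertk they were not called between allo-MCd and syngeneic skin (log2 differences -0.23 and -0.12). Both were picked for likeness to Mertk over the same mice, so the shared pattern is no separate result.

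Other genes that act with the 7 were taken from lists. Of the ligands and receptors of the CSF and FLT3 axis, 4 were on the panel, and 3 of these fell in allo-MCd against allo-WT skin, with a list median of -0.86, where 50.4% of all genes tested were called lower. Csf1, which encodes a ligand of this receptor, fell (log2 difference -0.64, limma adjusted p = 0.0223), as did Csf2ra (-1.47), while Flt3 differed by -0.09. None of the 4 was called between allo-WT and syngeneic skin, where Csf1 differed by -0.61 and Csf1r by 0.53. Under median scaling, however, 3 of the 4 were called lower there, Csf1 (-0.87), Csf2ra (-0.90) and Flt3 (-1.33), against 27.4% of all genes. All 4 fell in allo-MCd against syngeneic skin, with a log2 difference of -1.25 for Csf1, where 37.0% of all genes tested were called lower, and median scaling left 2 of them called, Csf1 (-0.67) and Csf2ra (-1.53), against 13.8% of all genes. One of the 4, Csf2, was above background in only 1 of 3 syngeneic and 1 of 5 allo-MCd mice, and these groups overlapped. Pros1, which encodes the MERTK ligand protein S and was the only gene of its list on the panel, fell in allo-MCd against allo-WT skin (log2 difference -1.14) and against syngeneic skin (-0.86). Under median scaling none of these 5 genes was called in allo-MCd against allo-WT skin, and Csf1 differed by 0.19, while Pros1 was not called against syngeneic skin either (-0.28).

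Of 5 other scavenger receptor genes, 4 fell in allo-MCd against allo-WT skin, with a median of -1.37, where 50.4% of all genes tested were called lower. They were Clec7a (-2.95), Cxcl16 (-1.94), Stab1 (-1.37) and Olr1 (-0.81), and the fatty acid transporter Cd36 differed by 0.20. Under median scaling 3 of the 5 fell and Cd36 rose, by 1.04, with a list median of -0.53, where 30.4% of all genes fell and 35.7% rose, and Olr1 was not called (limma adjusted p = 0.992). Clec7a, Cxcl16 and Stab1 rose from syngeneic to allo-WT skin, by 1.14, 1.54 and 0.84, where 28.1% of all genes were called higher, and 2 of the 5, Clec7a (-1.80) and Stab1 (-0.53), fell in allo-MCd against syngeneic skin, close to the 37.0% of all genes called lower, with a list median of -0.43 against -0.59 over all genes. Stab1 only just passed the test there (limma adjusted p = 0.0473), its groups overlapped, and under median scaling it differed by 0.05 and Clec7a alone was called. Of 19 other macrophage genes tested, 17 fell and 1 rose in allo-MCd against allo-WT skin (median -2.17), 11 rose and 1 fell from syngeneic to allo-WT skin (median 0.94), and 11 fell in allo-MCd against syngeneic skin (median -1.15). Over all genes tested 50.4% were called lower in the first of these comparisons, 28.1% higher in the second and 37.0% lower in the third. The C1q genes C1qa, C1qb and C1qc had log2 differences of -2.60, -2.57 and -2.52 in allo-MCd against allo-WT skin, beside -2.55 for Cd68. The gene that rose was Apoe, which encodes a lipid carrier also made outside macrophages, by 1.24. Under median scaling 11 of the 19 fell and 2 rose in allo-MCd against allo-WT skin, 9 rose and 1 fell from syngeneic to allo-WT skin, and 8 fell and 2 rose in allo-MCd against syngeneic skin, where that scaling called 30.4% of all genes lower, 24.2% higher and 13.8% lower in the same order.

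Among 10 myeloid transcription factor genes the pattern was mixed. In allo-MCd against allo-WT skin 4 fell, among them Irf5, Irf8 and Nr1h3, and Gata6 rose, by 1.49, with a list median of -0.36. Over all genes tested 50.4% were called lower and the median was -0.71, so that the count was near the share of all genes. Irf4, Gata6 and Pparg fell from syngeneic to allo-WT skin. Under median scaling none of the 10 fell and 4 rose in allo-MCd against allo-WT skin, and 5 fell from syngeneic to allo-WT skin, where 27.4% of all genes were called lower. All 3 monocyte genes fell in allo-MCd against allo-WT skin, with log2 differences of -2.54 for Ccr2 and -2.64 for Ly6c1.

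**Figure D4:**
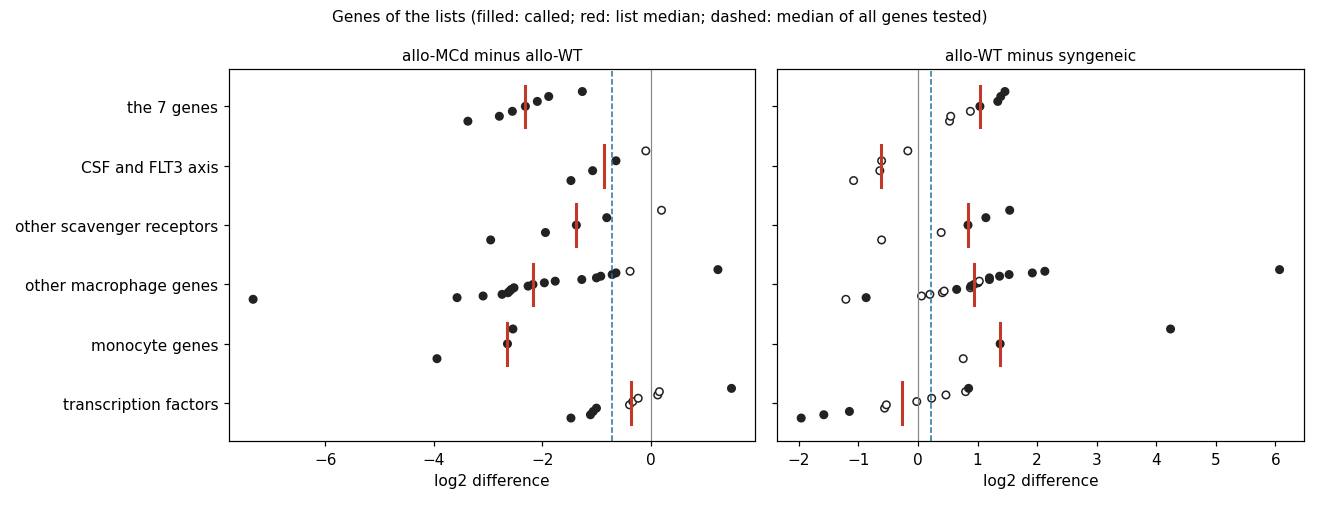
Log2 differences of the genes of each list (rows; each point is a gene, filled where called) for allo-MCd minus allo-WT on the left and allo-WT minus syngeneic on the right. The red bar is the list median and the dashed line the median of all genes tested (-0.71 and 0.22). The 7 genes and the other macrophage genes have medians of -2.31 and -2.17 on the left.

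Markers of some other cells also differed between the groups. The summed level of the 9 neutrophil markers on the panel was 780 to 1119 in syngeneic mice, 4168 to 134860 in allo-WT mice and 775 to 1275 in allo-MCd mice, and Ly6g, Mpo and Elane were not above background in any allo-MCd mouse. All 7 of those tested fell in allo-MCd against allo-WT skin, where 50.4% of all genes tested were called lower, and 4 rose from syngeneic to allo-WT skin, where 28.1% were called higher. In allo-MCd against syngeneic skin 1 of the 7 neutrophil markers and none of the 3 eosinophil markers tested were called lower (medians -0.04 and 0.14). Over all genes tested 37.0% were called lower there, with a median of -0.59. The 5 eosinophil markers summed to 128 to 142, 247 to 2138 and 125 to 215 in the same order, and Epx was not above background in any syngeneic or allo-MCd mouse. The 5 dendritic cell markers summed to 368 to 430, 388 to 549 and 142 to 329, with 3 of the 5 called lower in allo-MCd against allo-WT skin, close to the 50.4% of all genes. None of 3 endothelial markers and 1 of 5 fibroblast markers fell in that comparison, and Cdh1, the only keratinocyte marker, differed by -0.04. From syngeneic to allo-WT skin the endothelial genes Cdh5 (-1.41) and Tek (-1.62) and the collagen gene Col1a2 (-1.97) fell. Under median scaling Cdh5 (1.48), Tek (1.17) and Cdh1 (0.79) were called higher in allo-MCd against allo-WT skin and no fibroblast marker was called lower, while 5 of 7 neutrophil markers and 1 of 5 dendritic cell markers were called lower. That scaling called 30.4% of all genes lower and 35.7% higher. Single markers of T cells (Cd247) and B cells (Ms4a1) were on the panel, and Ms4a1 was above background only in allo-WT mice. Cd247 fell in allo-MCd skin against allo-WT skin (log2 difference -1.07, limma adjusted p = 0.0101) and against syngeneic skin (-0.98, adjusted p = 0.0262), and neither difference was called under median scaling (-0.24 and -0.40). The part of these cells in the values of the 7 genes was not tested.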

How the data were processed

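The NanoString myeloid panel was read on the nCounter Flex system with RNA of 11 mice, each a separate animal. The deposited values are a signal, molecule counts per gene that the authors scaled in nSolver. The software version and the housekeeping genes are not given in the sources used here. The table held 754 genes and 14 control probes. Gene symbols were looked up in RefSeq (GRCm38.p6), where 744 were found, 9 more through synonyms, and 1 was not.

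Whole counts were recovered with a single factor per mouse, 0.759 to 2.54, which put 99.87% to 100% of the gene values within 0.011 of a whole multiple. Housekeeping genes (19) were left out, and 697 of the other 735 genes reached 20 in 3 or more mice. These were fitted with limma 3.58.1 (R 4.3.3, intensity trend, no covariate) on log2(value + 1), a scale that understates the change of low genes. A second fit used the difference from Csf1r in the same mouse. Two-sided exact permutation tests of single genes enumerated 56 arrangements of 3 against 5 mice and 20 of 3 against 3. The fit was also run on simulated data with known changes, and the outcome is not reported here. Other steps used Python 3.11.15, pandas 2.3.3, numpy 2.4.6, scipy 1.17.1 and matplotlib 3.10.9.

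Genes named are the 7 genes, the 3 nearest to each by distance over the mice, and genes of the lists, some of which are not reported here. The genes and lists were chosen with earlier results of these data known. Alternatives covered the pseudocount, the filter, a floor at background, scaling by the median, by quantiles or by housekeeping genes, the trend of the fit, the groups fitted, a block on mouse number, each mouse left out in turn, Tukey's comparison after the 3-group test of the methods (called the methods' test), and voom on recovered counts.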

Additional observations from a re-analysis of the deposited data

Results flagged for a closer look

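One value stood far from the others of its group. Among the 5 allo-MCd mice, mouse 5 had a Mertk level of 405.2 normalized counts, and the gap to the next mouse was 0.763 of the range of the group, above the critical value of 0.71 for 5 samples. Of 13 groups of values examined in this way 1 was singled out, and chance alone marks about 1 in 20.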

How the results depend on the processing

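For allo-MCd against allo-WT skin the count of genes called lower stayed at 6 or 7 under all alternatives run. Between allo-WT and syngeneic skin the 4 genes called higher became 2 under quantile normalization and 2 under the methods' test with Benjamini-Hochberg adjustment, and 2 to 5 with each mouse left out. In allo-MCd against syngeneic skin the 6 genes called lower became 3 under median scaling, and 5 to 6 with each mouse left out. There the methods' test gave 1 (Csf1r) at an unadjusted threshold of 0.05 and 0 after Benjamini-Hochberg adjustment, against 6 by limma and 6 by voom on the recovered counts. Relative to Csf1r, leaving out each mouse gave 0 to 2 genes lower (1 in the fit of all mice) and 0 to 1 higher (0) in allo-MCd against allo-WT skin, 0 to 3 higher (2) in allo-WT against syngeneic skin and 0 to 2 higher (1) in allo-MCd against syngeneic skin, and a pseudocount of 20 added 1 higher, Mertk, in allo-MCd against allo-WT skin. The cause of these changes was not tested.

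Mice of the same number in different groups formed 9 pairs, whose deviations had correlations from -0.112 to 0.211, with 3 over 0.1. With so few mice a group, these correlations cannot show whether the mouse numbers pair the samples. With the replicate block the counts stayed at 7, 4 and 6 on the deposited scale, while relative to Csf1r the 2 genes called higher in allo-WT against syngeneic skin became 0, and in allo-MCd against allo-WT skin Marco was called (-1.34) and Mrc1 was not (-0.63).

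Of 834 alternative values of single genes 767 kept their direction and their side of the threshold, 45 lost the call, 12 gained one and 10 changed sign, none of them called. The Mertk difference between allo-MCd and syngeneic skin became 0.19 under median scaling and 0.27 under quantile normalization. Relative to Csf1r the changes of sign came with a mouse left out, over which Cd163 ran from -0.02 to 0.55 in allo-MCd against allo-WT skin (lowest without allo-WT mouse 3). In allo-WT against syngeneic skin Cd163 ran from -0.31 to 0.26 (-0.31 without allo-WT mouse 1, -0.07 without syngeneic mouse 2) and Mertk from -0.04 to 0.93 (lowest without allo-WT mouse 2). In allo-MCd against syngeneic skin Adgre1 ran from -0.03 to 0.76 and Mrc1 from -0.05 to 0.31 (both lowest without syngeneic mouse 1), and Marco from -0.67 to 0.26 (highest without syngeneic mouse 2), with 0.11 at a pseudocount of 20. The planned quasi-likelihood test on recovered whole counts was not run, and voom on those counts, added after seeing the data, was run in its place. Of the 7 genes only Marco had a mouse not above background, in the allo-MCd group, and with values floored at background its log2 difference from allo-WT skin was -3.36, against -3.37, while a pseudocount of 20 gave -2.76.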
